A study of Homo sapiens with 8 samples.

Results

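Oncofetal genes are expressed in the fetal liver, are mostly silent or low in the adult liver, and return in hepatocellular carcinoma. The 9 genes described here, AFP, GPC3, LIN28B, IGF2BP1, IGF2BP2, IGF2BP3, SALL4, HMGA1 and HMGA2, were listed by name for that role, with earlier results of these data known. All 9 were among the 25603 genes of the expression table, and all 9 passed the filter on low levels, which left 20153 genes. The data are RNA-seq of HepG2 cells, an established hepatocarcinoma line kept in William E medium with serum, insulin and dexamethasone. The vehicle group received 0.2% DMSO per the labels (the methods of the study give a lower percentage), and the EZHi group received UNC1999 together with valemetostat tosylate, at 1 µM each. Both inhibitors act on EZH1 and EZH2, the alternative catalytic subunits of the polycomb repressive complex that trimethylates H3K27. Treatment lasted 4 days, and each group had 4 libraries from this single line, with replicate numbers shared between groups. The study describes the libraries as independent biological replicates of this line, and p-values measure the spread between them.

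Values are deposited on a log2 scale that is corrected for depth and for transcript length, and an estimated FPKM (fragments per kilobase of transcript and per 1e6 reads) was derived from them. Read depth is unknown, and the values of low genes are shrunken. All 9 hepatocyte markers examined, including ALB, APOB and HNF4A, were in the table, with a summed estimated FPKM between 11097 and 26414 in vehicle libraries and between 12078 and 23520 in EZHi libraries. FGB alone of these was called without the block (0.92 on the log2 scale, higher in EZHi), and with it APOA1 and APOB were also called higher and ALB lower. None of the 4 cholangiocyte markers (KRT7, KRT19, SOX9, EPCAM) was called without the block, and nor was COL1A1, the 1 fibroblast marker tested. The leukocyte markers PTPRC and CD68 were not in the table. Of the 3 endothelial markers, VWF and CDH5 were higher in EZHi and PECAM1 was not called. Their summed estimated FPKM ran from 2.26 to 2.72 in vehicle and from 3.42 to 7.21 in EZHi libraries, and their part in the results was not tested.

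The proteins fall into 4 kinds. AFP is the main plasma protein of the fetus, made by hepatoblasts and yolk sac, and GPC3 is a cell-surface heparan sulfate proteoglycan. LIN28B and IGF2BP1 to IGF2BP3 bind RNA: LIN28B blocks the maturation of let-7 microRNAs, and the IGF2BP proteins bind and stabilise mRNAs, including IGF2, MYC and m6A-marked transcripts. SALL4 is a zinc-finger transcription factor of embryonic stem cells and fetal liver that recruits the NuRD corepressor. HMGA1 and HMGA2 are architectural chromatin proteins that bind AT-rich DNA. Several of these genes are textbook targets of let-7, so that LIN28B and let-7 stand in a loop that changes state between fetal and adult liver.

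Sites for the let-7 family were looked for in all 9 genes. In RefSeq (GRCh38.p14), 11 mature miRNAs from 14 loci shared the seed of let-7a-5p, among 2370 mature miRNAs compared. The mature sequences of 4 of them are shown with the seed, bases 2 to 8, in capitals.
let-7a-5p: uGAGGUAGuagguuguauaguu
let-7d-5p: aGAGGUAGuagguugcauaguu
let-7i-5p: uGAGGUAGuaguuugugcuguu
miR-98-5p: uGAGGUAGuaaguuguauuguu
A stretch complementary to the whole seed, CTACCTC on the transcript strand, was searched after the stop codon of the MANE Select transcript of each gene (GENCODE release 44, GRCh38). It occurred in 7 of the 9 genes (77.8%), against 9.70% of 19061 transcripts. Among the 8229 transcripts whose searched part was at least 1347 bases long, as in the shortest of those 7, the share was 17.9%. That bound was set by the genes with a stretch and leaves out AFP and GPC3, searched over 554 and 379 bases. The 77.8% covers all 9 genes and is not a share within this class. HMGA2, IGF2BP1 and LIN28B each held 4 such stretches, a number reached by 12 of all transcripts of any length, including these 3. HMGA1, IGF2BP2, IGF2BP3 and SALL4 held 1 each, and AFP and GPC3 held none. One stretch of each of the 7 genes, the first after the stop codon, follows with the complement of the seed in capitals. The core is the same in each because it was the string searched for, and the flanks were not compared.
LIN28B, chr6:105078812-105078836, plus strand: acccggttgcaaagtCTACCTCatg
HMGA2, chr12:65963298-65963322, plus strand: gccaacgttcgatttCTACCTCagc
HMGA1, chr6:34245829-34245853, plus strand: tcctctgttcacaaaCTACCTCtgg
IGF2BP1, chr17:49051061-49051085, plus strand: tgtgtgcgaagtaaaCTACCTCaag
IGF2BP2, chr3:185644218-185644242, minus strand: aacacacagaagaagCTACCTCagg
IGF2BP3, chr7:23311793-23311817, minus strand: tgcatttttactcaaCTACCTCagg
SALL4, chr20:51782921-51782945, minus strand: aaagctttaatttatCTACCTCatt
These matches are a description of the transcripts. Mature let-7 was not measured in these mRNA libraries.

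In vehicle-treated cells the genes spanned 4 orders of magnitude on the estimated FPKM scale. AFP was at 16089 ± 3214 (SD, n = 4), the highest of all 20153 genes tested. HMGA1 followed at 469 ± 71.6, then IGF2BP1 at 204.6 ± 16.04 and HMGA2 at 188.04 ± 14.97, whose ranges over the 4 vehicle libraries overlapped. IGF2BP2 was at 122 ± 21.1 and stood apart from its neighbours in this order. IGF2BP3 at 74.9 ± 3.30 and GPC3 at 70.3 ± 6.71 overlapped, LIN28B was at 22.4 ± 1.27, and SALL4 was lowest at 1.16 ± 0.0608. The order of the means was the same in EZHi libraries, where only IGF2BP3 and GPC3 overlapped. These levels rest on the mean length of all annotated transcripts of a gene, which for AFP is 964 bases against 2426 for its MANE Select transcript, so the level of AFP is sensitive to that choice.

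**Figure D1:**
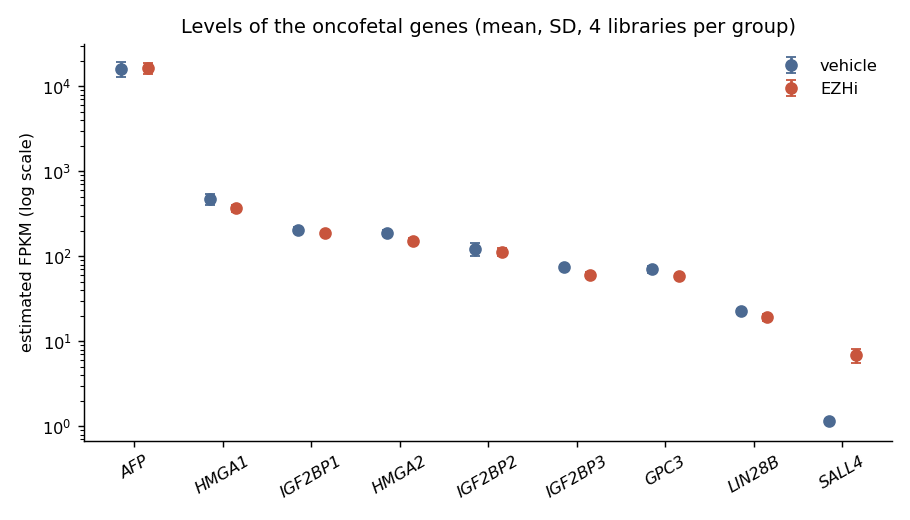
Estimated FPKM on a log axis for each oncofetal gene, ordered by its vehicle level, as mean and SD of 4 libraries per group (some bars are smaller than the points). AFP lies far above the others in both groups, and SALL4 is lowest in both, at 1.16 in vehicle and 6.85 in EZHi.

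The group split under EZHi into a single strong rise and several small negative differences, of which 2 passed the test. SALL4 rose 5.83-fold, IGF2BP3 and HMGA2 fell to 0.811 and 0.81 of their vehicle level, and AFP, IGF2BP1 and IGF2BP2 were not called in any fit. GPC3, LIN28B and HMGA1 were lower in all 4 pairs of equally numbered libraries and passed the test once the replicate number entered the fit. In limma with group as the only term, 1 of the 9 genes was called higher, where 8.85% of all genes tested were, and 2 were called lower, where 4.27% were. With the replicate number as a block, 1 was called higher (14.9% of all genes) and 5 lower (15.1%). The groups did not overlap for 1 gene with EZHi higher (10.7% of all genes) and for 2 with EZHi lower (7.93%). The log2 fold change was negative for 7 of 9 genes, with a median of -0.23, against -0.01 over all genes tested.

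Highly expressed genes as a whole sat slightly lower in EZHi libraries. Among the 7809 genes at an estimated FPKM of at least 10, to which the members other than SALL4 belong, the median log2 fold change was -0.09. In this class 9.16% were called lower without the block and 32.5% with it. When libraries were centred on that class, the share of calls that were higher, over all genes, went from 67.5% to 88.5%, and none of the 9 genes remained called lower.

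**Figure D2:**
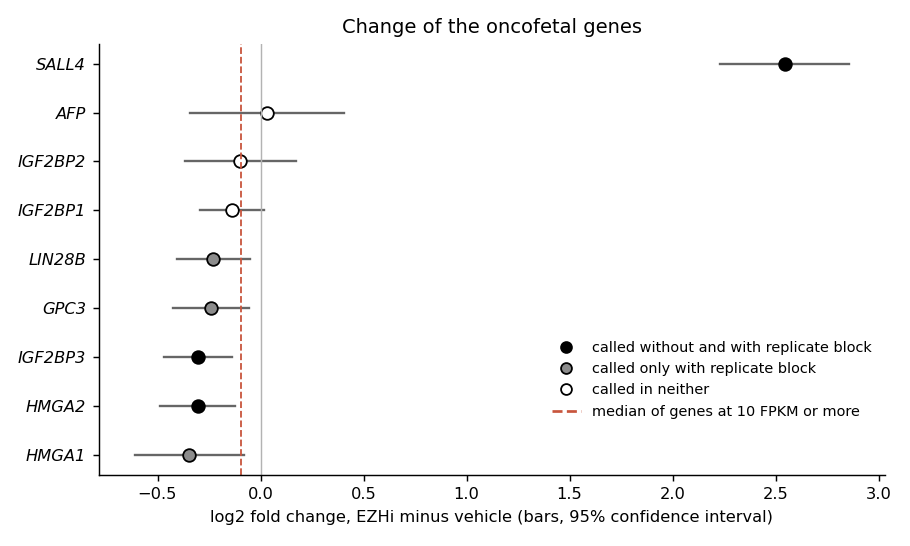
Log2 fold change (EZHi minus vehicle) of each oncofetal gene with its 95% confidence interval from limma without the replicate block. Point fill gives the call with and without that block, and the dashed line marks the median, -0.09, of genes at 10 FPKM or more. SALL4 lies at 2.54, and the other genes lie between -0.35 and 0.03.

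SALL4 (chr20:51782331-51802521, minus strand) was the member that responded most. Its log2 expression was 4.84, 4.82, 4.91 and 4.99 in vehicle replicates 1 to 4, and 7.24, 7.17, 7.77 and 7.57 in the EZHi replicates. Every EZHi library was above every vehicle library, and the differences within pairs ran from 2.35 to 2.86. The log2 fold change was 2.54 ± 0.14 (SE; 95% confidence interval 2.23 to 2.86; limma adjusted p = 5.4e-06), the 38th highest of all genes tested. The level went from 1.16 ± 0.0608 to 6.85 ± 1.36 estimated FPKM (SD, n = 4), so SALL4 remained below each of the other members after its rise. Over 16 alternative settings its log2 fold change stayed between 2.13 and 2.64 and was called in each.

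None of the 4 nearest protein-coding neighbours of SALL4 in the annotation was called without the block. ATP9A, 13.9 kb away, had a log2 fold change of 0.10 (adjusted p = 0.486 in limma), and ZFP64 on the other side, 249 kb away, had one of -0.02 (adjusted p = 0.909 in limma). NFATC2 was at 0.31 and TSHZ2 at 0.65, neither called without the block, with adjusted p of 0.0193 and 0.0119 with it in limma.

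Among the relatives and partners of SALL4, SALL1, which acts in kidney and limb development, rose by 0.45 ± 0.08 (SE) on the log2 scale, from 8.59 ± 0.12 to 9.04 ± 0.07. SALL2 differed by 0.09 and was not called. SALL1 was the only one of 15 SALL and NuRD genes tested that was called higher, and none was called lower. Over all genes tested, 8.85% were called higher and 4.27% lower. With the block 5 of the 15 were called lower, where 15.1% of all genes were and 32.5% of those at an estimated FPKM of at least 10. Among the 5 were the NuRD subunits MTA2 (-0.32) and CHD3 (-0.27). Of the pluripotency factors, which with SALL4 maintain embryonic stem cells, POU5F1 had a log2 fold change of 0.06 and NANOG one of 0.07. Both stayed under 0.5 estimated FPKM in either group and were not called, whereas KLF4 rose by 0.69 on the log2 scale, from 0.293 to 0.478 estimated FPKM.

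Of the 4 RNA-binding members, IGF2BP3 was the only one called without the block. IGF2BP3 (chr7:23310209-23470491, minus strand) was at 10.91, 10.87, 10.99 and 10.85 in the vehicle libraries and at 10.75, 10.51, 10.65 and 10.49 in the EZHi libraries. All EZHi values lay below all vehicle values. The log2 fold change was -0.30 ± 0.07 (SE; 95% confidence interval -0.47 to -0.14; limma adjusted p = 0.0232, and 0.00201 with the block). The call was lost on leaving out vehicle replicate 1 or 3 or EZHi replicate 2 or 4, with limma adjusted p between 0.0504 and 0.0738, while the log2 fold change stayed between -0.35 and -0.27 on leaving out any library. IGF2BP3 shares 1521 bases of exon with MALSU1 on the opposite strand, a mitochondrial ribosome assembly factor. MALSU1 itself fell by 0.28 (log2; adjusted p = 0.0166 in limma), and per the methods reads were counted without strand, so reads from this overlap cannot be told apart between the genes.

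IGF2BP1 (chr17:48997385-49056145, plus strand) was at 12.32, 12.50, 12.24 and 12.34 in vehicle and at 12.23, 12.25, 12.15 and 12.24 in EZHi libraries. It was lower in EZHi in each pair, but the groups overlapped. Its log2 fold change of -0.14 ± 0.07 (SE) was not called without the block (limma adjusted p = 0.241) nor with it (0.052). IGF2BP2 (chr3:185643130-185825042, minus strand) ran from 11.41 to 11.94 in vehicle and from 11.38 to 11.72 in EZHi libraries, with replicate 3 the highest of both groups. Its log2 fold change was -0.10 ± 0.12 (SE; 95% confidence interval -0.37 to 0.17), and it was not called in any fit.

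The decrease of IGF2BP3 was also compared with that of its paralogs inside each library, where scaling between libraries cancels. The log2 ratio of IGF2BP1 to IGF2BP3 was higher in EZHi in all 4 pairs, by 0.06 to 0.25, and that of IGF2BP2 to IGF2BP3 by 0.05 to 0.33. The mean differences of 0.16 and 0.20, beside SDs of 0.15 to 0.18 within groups (n = 4), did not pass the test (exact two-sided permutation tests, p = 0.2 and 0.171, adjusted p = 0.4 for both, over 4 ratios tested). The ratio of IGF2BP1 to IGF2BP2 differed by -0.04 (exact permutation p = 0.886). With 70 assignments of the libraries the smallest possible p is 0.0286, and these tests ignore the pairing.

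**Figure D3:**
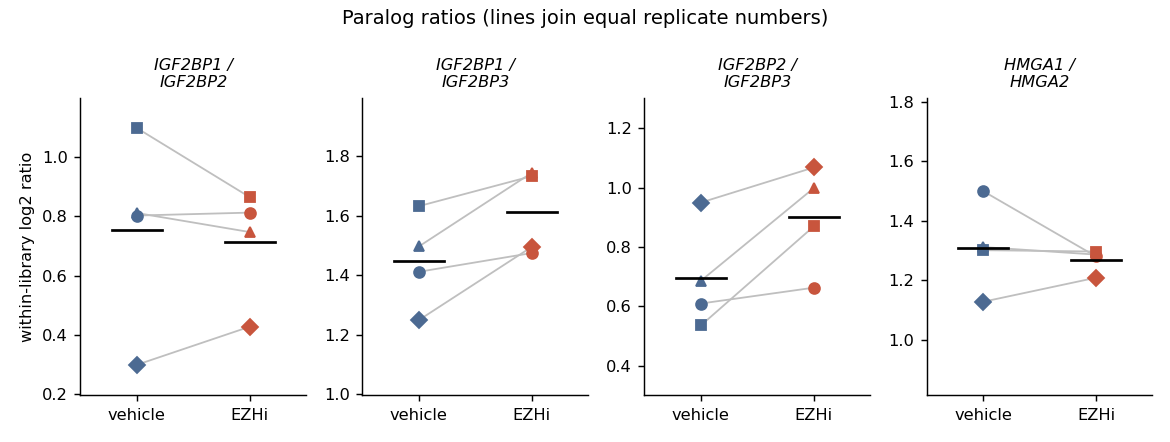
Within-library log2 ratios of paralogs, with 1 panel per ratio and axes that all span 1 log2 unit. Points are libraries, grey lines join libraries of equal replicate number, and black bars are group means. Both ratios over IGF2BP3 are higher in EZHi along all 4 lines while the groups overlap.

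Of 5 tested transcripts that IGF2BP proteins are known to bind, 1 was called without the block, as lower. Over all genes tested, 4.27% were called lower and 8.85% higher. ACTB fell by 0.52 on the log2 scale, and BTRC, MYC and IGF2 were not called in that fit. IGF2, a fetal growth factor, had a log2 fold change of 1.33 ± 0.43 (SE; limma adjusted p = 0.0741), with vehicle values that varied by an SD of 0.91. It was higher in all 4 pairs and was called with the block (adjusted p = 7.3e-05 in limma). MYC (0.18) was also higher in all 4 pairs and called with the block (adjusted p = 0.0234 in limma). In that fit 2 of the 5 were called higher and 2 lower, where 14.9% and 15.1% of all genes were. Of 13 writers, erasers and YTH readers of m6A, 1 was called lower without the block, where 4.27% of all genes were. It was the helicase YTHDC2, which fell by 0.26 on the log2 scale. None was called higher, where 8.85% of all genes were. With the block, WTAP (-0.15) and ALKBH5 (-0.20) were called lower as well, where 15.1% of all genes were called lower.

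LIN28B (chr6:104936616-105083332, plus strand) was at 9.17, 9.24, 9.19 and 9.05 in vehicle libraries. In EZHi libraries it was at 9.12, 8.88, 8.88 and 8.86, so that only EZHi replicate 1 reached the vehicle range. The log2 fold change was -0.23 ± 0.08 (SE; 95% confidence interval -0.41 to -0.05; limma adjusted p = 0.0945, and 0.0222 with the block). Without EZHi replicate 1 it was -0.29 and was called (limma adjusted p = 0.0379). Its exons share 147 bases with LIN28B-AS1 on the opposite strand, which was at 0.474 estimated FPKM in vehicle and was not called. BVES, 13.5 kb downstream and at 0.361 estimated FPKM in vehicle, rose by 0.95 (log2, adjusted p = 0.0053 in limma). HACE1, 76.7 kb away on the other side, had a log2 fold change of -0.08 and was not called.

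In the let-7 pathway, 2 of 9 genes tested were called lower, where 4.27% of all genes tested were, and none higher, where 8.85% were. The counts were the same with the block, where 15.1% and 14.9% of all genes were called. The 2 genes belong to the class at an estimated FPKM of at least 10. In that class 9.16% were called lower without the block and 32.5% with it. DROSHA, the nuclear nuclease that cuts primary miRNAs, fell by 0.28 on the log2 scale, and XPO5, which exports the precursors, fell by 0.30. DICER1, DGCR8, the uridylyltransferases TUT4 and TUT7, the nuclease DIS3L2 and the let-7 host transcripts MIRLET7A1HG and MIRLET7BHG were not called, with log2 fold changes between -0.14 and 0.13. Of 14 textbook let-7 targets outside the 9 genes, MYCN rose by 2.59 ± 0.23 (SE) and CCND2 by 2.47 ± 0.32 on the log2 scale, both from under 0.5 estimated FPKM in vehicle. ARID3B fell by 0.27, and IGF1R, with 0.08, was not called. Without the block 2 of the 14 were called higher and 1 lower, where 8.85% and 4.27% of all genes were. The median over these targets was 0.03. With the block 4 of the 14 were called higher and 4 lower, where 14.9% and 15.1% of all genes were.

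HMGA2 (chr12:65824460-65966291, plus strand) was at 12.26, 12.38, 12.13 and 12.16 in vehicle libraries and at 12.05, 11.99, 11.83 and 11.83 in EZHi libraries. The groups did not overlap. HMGA2 had a log2 fold change of -0.30 ± 0.08 (SE; 95% confidence interval -0.49 to -0.12; limma adjusted p = 0.0356, and 0.00123 with the block). The call was lost on leaving out vehicle replicate 1, 2 or 4 or EZHi replicate 2, 3 or 4, with limma adjusted p between 0.0515 and 0.107. HMGA2-AS1, which shares 384 bases of exon with HMGA2 on the opposite strand, was at 0.129 estimated FPKM in vehicle and had a log2 fold change of 0.10.

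HMGA1 (chr6:34236873-34246231, plus strand) was at 13.76, 13.68, 13.25 and 13.47 in vehicle and at 13.33, 13.29, 13.03 and 13.11 in EZHi libraries. Vehicle replicate 3 lay within the EZHi range, yet each EZHi library was below the vehicle library of its own number, with differences of -0.22 to -0.42. A log2 fold change of -0.35 ± 0.12 (SE; 95% confidence interval -0.61 to -0.08) was the most negative of the 9 genes, and it was not called without the block (limma adjusted p = 0.0887) and was called with it (0.000984), or on leaving out vehicle replicate 3 (-0.44, adjusted p = 0.0239). HMGA1 has processed pseudogenes that could share its reads, of which HMGA1P2 (-0.31) and HMGA1P3 (-0.24) were not called.

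The log2 ratio of HMGA1 to HMGA2 was 1.31 ± 0.15 in vehicle and 1.27 ± 0.04 in EZHi libraries (SD, n = 4; exact permutation p = 0.6), a difference of -0.04. Of 8 HMGB and HMGN proteins tested, which bend DNA or bind nucleosomes, HMGN5 alone was called without the block and rose by 0.50 on the log2 scale, from 0.328 to 0.466 estimated FPKM. Over all genes tested, 8.85% were called higher and 4.27% lower. With the block 3 of the 8 were called higher and 1 lower, where 14.9% and 15.1% of all genes were. HMGB1 (0.04), HMGB2 (-0.15) and HMGN1 (-0.10) were not called, with or without the block.

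**Figure D4:**
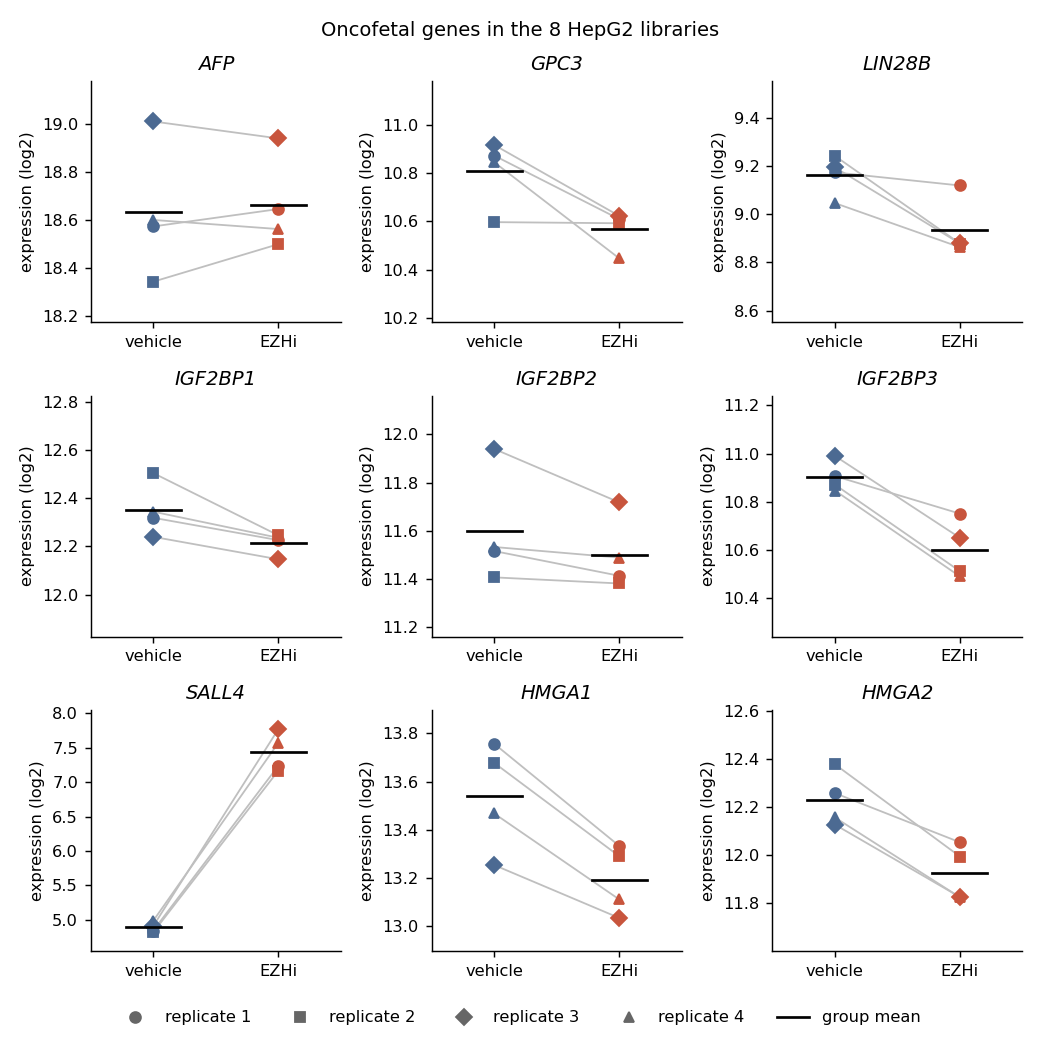
Log2 expression of the 9 oncofetal genes in each library, with symbols for replicate numbers, grey lines joining equal numbers and black bars for group means. Axes span 1 log2 unit, except for SALL4, where they span 3.5. EZHi is above vehicle in all 4 pairs for SALL4 and in 2 for AFP, and below it in all 4 pairs for the other 7 genes.

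The surface and secreted members did not pass the test without the block. AFP (chr4:73431138-73456174, plus strand) was at 18.57, 18.34, 19.01 and 18.60 in vehicle and at 18.65, 18.50, 18.94 and 18.56 in EZHi libraries. The spread between replicate numbers was larger than any shift between groups, and replicate 3 was the highest in both. AFP had a log2 fold change of 0.03 ± 0.17 (SE; 95% confidence interval -0.34 to 0.40; limma adjusted p = 0.939, and 0.842 with the block). That interval leaves room for a change from a fall of 21.2% to a rise of 32.3%.

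The albumin gene family on chromosome 4, to which AFP belongs, was mixed. ALB, 9.66 kb away, had a log2 fold change of -0.28 ± 0.32 (SE) that was not called without the block (limma adjusted p = 0.638), but was called with it (0.0314). AFM was not called, and GC, the vitamin D binding protein, rose by 0.74 ± 0.07 (SE) from 0.0892 to 0.15 estimated FPKM. That vehicle level is under the filter of 0.1, so GC was tested only through its level in EZHi libraries, near the floor of the table. Of 10 known regulators of AFP tested, 1 was called higher, where 8.85% of all genes were, and 1 lower, where 4.27% were. The activator NR5A2 rose by 0.50 on the log2 scale and the pioneer factor FOXA1 fell by 0.25. With the block 3 were called higher and 1 lower, where 14.9% and 15.1% of all genes were. FOXA2 (0.23), the paralog of FOXA1, and CEBPB (0.15) were called higher only in that fit. The AFP repressors ZHX2 (0.15), ZBTB20 (-0.10) and ZFHX3 (-0.11) were not called.

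GPC3 (chrX:133535745-133987100, minus strand) was at 10.87, 10.60, 10.92 and 10.85 in vehicle and at 10.61, 10.59, 10.62 and 10.45 in EZHi libraries. Vehicle replicate 2 fell inside the EZHi range, and in that pair the difference was -0.0047, against -0.40 in pair 4. This gave a log2 fold change of -0.24 ± 0.08 (SE; 95% confidence interval -0.42 to -0.06; limma adjusted p = 0.0884, and 0.0202 with the block). Without vehicle replicate 2 it was -0.31 and was called (limma adjusted p = 0.0205).

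Of 14 other proteoglycans and related proteins tested, 4 were called higher and 1 lower, where 8.85% and 4.27% of all genes were. The higher ones were the syndecan SDC3 (1.61), the heparan sulfate 6-O-endosulfatase SULF2 (1.41), the tetraspanin CD81 (0.87) and NOTUM (0.33), a lipase that cleaves palmitoleate from WNT. CD81 was low, at 0.261 estimated FPKM in vehicle and 0.486 in EZHi libraries. SDC4 fell by 0.56 on the log2 scale. With the block 9 were called higher and 2 lower, where 14.9% and 15.1% of all genes were. Among them were GPC1 (0.31), GPC2 (0.51) and GPC6 (0.25) as higher and SDC1 (-0.41) as lower.

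Markers of fetal liver and liver cancer outside the 9 genes were called in 1 direction. Of 18 tested, 7 were called higher, where 8.85% of all genes tested were, and none lower, where 4.27% were. The median log2 fold change of the 18 was 0.38, and the list was chosen with earlier results of these data known. CD24, a surface glycoprotein of progenitor cells, rose by 2.38 ± 0.09 (SE), from 20.8 to 108 estimated FPKM. The WNT antagonist DKK1 rose by 1.90, the stem cell marker PROM1 by 1.53 and TPBG by 1.35 on the log2 scale. TPBG was low, at 0.154 estimated FPKM in vehicle and 0.392 in EZHi libraries. MDK (0.47), GOLM1 (0.43) and NOTUM (0.33) were called with smaller changes, the last at a limma adjusted p of 0.0498. EPCAM (-0.04), LGR5 (-0.02), PEG10 (-0.09) and TERT (0.19) were not called with or without the block. With it 13 of the 18 were called higher, including DLK1 (0.35), SPP1 (0.35), SOX9 (0.19) and IGF2, described above, and none lower. Over all genes tested, 14.9% were called higher and 15.1% lower with the block.

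**Figure D5:**
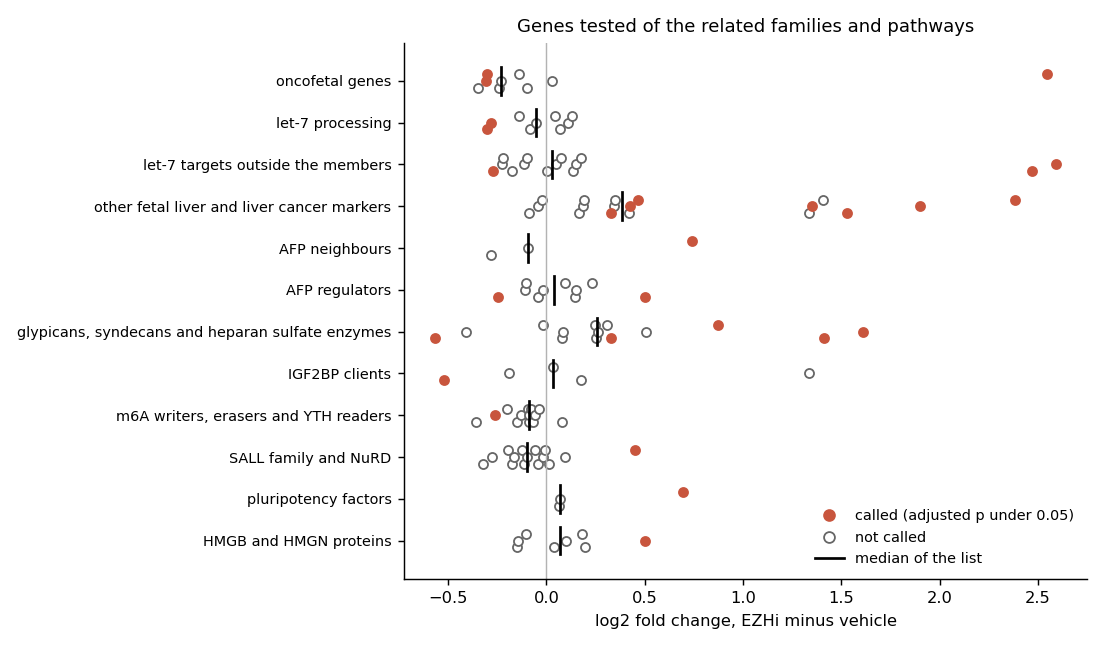
Log2 fold change (EZHi minus vehicle) of every tested gene of the oncofetal group and of the related families and pathways, without the replicate block. Filled points were called, open points were not, and black bars are medians. Among the lists plotted, the fetal liver and liver cancer markers have the highest median, 0.38, and the oncofetal genes the lowest, -0.23.

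As a description of likeness, the 3 tested genes whose values over the 8 libraries were closest to SALL4 were GAS7 (Pearson r = 0.998), COL26A1 (0.997) and OLIG3 (0.997), which share with it the separation of the groups. For HMGA2 the closest was JPT2 (0.997), for LIN28B DPM1 (0.993), for IGF2BP3 LIMS1 (0.993) and for IGF2BP1 TNFAIP8 (0.99). HMGA1 was closest to THYN1 (0.99), AFP to IMMP2L (0.987), IGF2BP2 to RCOR3 (0.985) and GPC3 to COPA (0.979). Each was the best of 20153 genes over the same 8 libraries, so high values arise readily. After subtracting group means, AFP was closest to TMEM9B-AS1 (0.995), IGF2BP1 to NEMP1 (0.999), and LIN28B again to DPM1 (0.983).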

How the data were processed

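RNA-seq libraries of HepG2 cells (4 vehicle, 4 EZHi) were analysed from 1 table. The authors deposited log2 values: per the methods and labels, reads were mapped to hg38 (HISAT2 2.2.1), counted per gene without regard to strand (HTSeq 0.9.1), normalized with the regularized log of DESeq2 1.40.2 and corrected for mean transcript length. The regularized log shrinks changes of low genes. The table held 25604 rows, 1 a repeat with identical values.

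Estimated FPKM is 2 to the power of the deposited value, divided by 25.6, the mean over libraries of the summed normalized reads in units of 1e6 (24.4 to 27.3; lengths from GENCODE 44). Depth is unknown. Genes at a mean of at least 0.1 were tested with limma 3.58.1 (R 4.3.3; eBayes with a trend, no term but group, two-sided tests, Benjamini-Hochberg adjustment over the 20153 genes, called at adjusted p under 0.05). The fit was tested on simulated data. Groups and numbers came from titles. Deviations from group means correlated at 0.216 to 0.634 between libraries of equal number (4 pairs) and at -0.582 to 0.199 otherwise (12 pairs). Libraries of equal number thus tended to vary together, though these ranges nearly met. A replicate block was the alternative fit, and the fit without it ignores any pairing. Ratios were tested by exact permutation (Python 3.11.15, numpy 2.4.6, pandas 2.3.3, matplotlib 3.10.9). Members and lists were chosen with earlier results of these data known. All members are named, with at most 4 called genes per direction of each list by size of change, and others that a sentence needed, chosen after their values were seen.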

Additional observations from a re-analysis of the deposited data

Results flagged for a closer look

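LIN28B was at 9.12 in EZHi replicate 1, apart from the other EZHi libraries, which lay between 8.86 and 8.88. The gap made up 0.939 of the range of the group, above the critical value of Dixon's test for 4 samples. It was the only one of 26 groups of values examined that stood out in this way, where chance gives 1.3.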

How the results depend on the processing

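SALL4 was called higher under all 16 alternatives, and no called log2 fold change of the 9 genes changed sign. The number of the 9 genes called lower, 2 in the analysis as reported, was 0 after quantile normalization, 0 with libraries centred on genes at an estimated FPKM of at least 10, and 1 with a prior variance without trend. It ranged from 0 to 3 on leaving out single libraries. The median log2 fold change of the 9 genes was -0.12 with quantile normalization and -0.13 with that centring. Under quantile normalization IGF2BP3 was at -0.19 and HMGA2 at -0.20, and with the centring both were at -0.21, none called.

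With the replicate block 5 of the 9 genes were called lower, and 39 genes of the related lists, cell type markers included, were called higher and 21 lower, against 20 and 7 of 121 without it. The block changed no other call of the 9 genes than those of GPC3, LIN28B and HMGA1. It moved the calls over all genes from 1784 higher and 860 lower to 3003 and 3048. Genes of the related lists called lower numbered 2 with quantile normalization, 2 with the centring and 3 to 7 on leaving out single libraries, and those called higher numbered 13 when the filter was raised to an estimated FPKM of 1. Calls over all genes were 2504 higher and 326 lower with the centring, and 780 and 799 with that higher filter. Depth is unknown, so no limit from counting error can be given. The causes of these shifts were not tested.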

Other observations

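Of the 6 related genes that lay under the filter on low levels, LIN28A, GPC4, MIR100HG and SOX2 were higher in every EZHi library than in any vehicle library. CDH17 and CD44 overlapped between groups. Among genes that passed the filter the share without overlap and with EZHi higher was 10.7%, and it was not computed for genes under the filter. LIN28A, the paralog of LIN28B, went from 0.32 ± 0.05 to 1.58 ± 0.25 on the log2 scale (SD, n = 4), which is 0.0488 and 0.118 estimated FPKM. Without the filter its log2 fold change was 1.26 ± 0.11 (SE; limma adjusted p = 0.00021). GPC4, next to GPC3 on chromosome X, went from 0.73 ± 0.14 to 1.57 ± 0.18 on the log2 scale (0.84 ± 0.10, SE; limma adjusted p = 0.00125 without the filter). MIR100HG, a host transcript of a let-7 miRNA, went from 0.27 to 0.55 (limma adjusted p = 0.0384 without the filter). These levels are near the floor of the table, where the regularized log leaves little spread (vehicle SD of 0.003 for MIR100HG), so groups can lie apart on a small difference.

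After subtracting group means, AFP and IGF2BP2 varied together over the 8 libraries (Pearson r = 0.965), as did HMGA1 and HMGA2 (0.840), while AFP and IGF2BP1 varied in opposite directions (-0.906). These are descriptions over 8 libraries that share replicate numbers, chosen from 36 pairs of genes after their values were seen.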
